A study of Mus musculus with 2 samples.

Results

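The mRNAs of the Smad signalling factors Smad1 to Smad7, Skil and Tgif1 were followed between polysomes and the lighter part of a sucrose gradient in mouse cells under endoplasmic reticulum (ER) stress. They were taken as the array spots for transcripts whose gene name was one of these 9 symbols on both arrays. This gave 15 probes of 9 RefSeq accessions, 1 per gene, among 18743 coding accessions on the array. All 9 were among the 10033 coding accessions detected on both arrays, meaning that A, the average of the log2 signals of both fractions, was above 4.5.

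The cells were NIH3T3, an established line of mouse embryonic fibroblasts. The control group was left untreated, and the stress group received 10 µM thapsigargin, a blocker of the calcium pump of the ER, for 3 h. RNA bound to polysomes (P, labelled with Cy3) and pooled free and monosome RNA (FM, labelled with Cy5) were hybridised together on 1 array for each condition, with RNA of 3 preparations pooled. For labelling, the study kept the proportion of RNA between the fractions, with more in P in control cells and more in FM under stress. The total RNA labelled was the same for each condition. The log2 ratio P/FM is used as translation efficiency, so a value of 0 means equal signals in both fractions. With 1 array per condition there are no replicates and no p-value is given. P carried the same dye on both arrays, so a level of log2 P/FM and a dye effect of the probe cannot be told apart.

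Smad proteins carry signals of the TGF-beta family from receptors at the cell surface to the nucleus. Receptors for bone morphogenetic proteins (BMP) phosphorylate Smad1 and Smad5, receptors for TGF-beta and activin phosphorylate Smad2 and Smad3, and both kinds then bind the common partner Smad4 to reach their target genes. Smad6 and Smad7 inhibit the pathway and are themselves induced by it, while Skil (also called SnoN) and Tgif1 are nuclear corepressors that bind Smads at their targets. In fibroblasts the pathway is known for driving the synthesis of extracellular matrix.

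Between 42.5% and 46.3% of the 43379 transcript spots were well above background in each channel, and none was saturated. All 9 fibroblast markers were detected, with 2 of 4 leukocyte markers (Cd3e and Cd68, but not Ptprc) and none of 4 epithelial or 3 endothelial markers. The stress response was visible in Atf4, the transcription factor known for translation under stress, which went from -1.60 to 1.83 in log2 P/FM. Across all detected coding mRNAs the median log2 P/FM moved from 0.34 to -0.29, and the median change was -0.71. Changes below are therefore also given relative to that median. The only measure of error is within the arrays. The SD of the change between probes of an mRNA had a median of 0.32 over 3438 mRNAs, from 0.49 where mean A was 4.5 to 5.5 down to 0.19 where it was above 9.

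On the unscaled arrays the Smad factor mRNAs changed in 2 directions. The log2 P/FM of Smad7 and Skil rose by 1.25 and 1.48, and that of Smad5 rose at 2 of its 3 probes. For Skil the signals of both fractions were higher under stress. The log2 P/FM of Smad2 and Smad4 fell by 1.15 and 1.30, a fall that became a rise where the arrays were scaled on spike-in RNA. Falls as large were common, since 35.8% of all detected coding mRNAs had a lower change than Smad2 and 31.2% a lower one than Smad4. Smad1, Smad3, Smad6 and Tgif1 changed by no more than 0.44 in either direction. A change was called here where it was at least 0.8 in size and every probe of the mRNA moved the same way, which left 4 called mRNAs. The share of all mRNAs past this rule was not counted, but 47.0% of all detected coding mRNAs fell by at least 0.8.

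By the thresholds of the study, 3 of the 9 were inducible, with log2 P/FM at or below 0 in control cells and a rise of at least 1 (Smad5, Smad7 and Skil), against 8.86% of all detected coding mRNAs. Another 2 of the 9 were sensitive, with a fall of at least 0.8 (Smad2 and Smad4), against 47.0% of all. The sensitive count was 1 of 9 with normexp background correction (Smad4) and 0 of 9 with the processed signals of the scanner software, centring of the arrays, loess or spike-in scaling. The share of all mRNAs that were sensitive under these settings was not counted. The median change of the 10033 mRNAs was -0.04, -0.28, -0.08, -0.15 and 1.74 in that order, where it was -0.71 without these settings. None of the 9 was resistant, with log2 P/FM of at least 0.8 in both conditions, as were 3.00% of all. The other 4 fell in none of these classes. Smad3 became resistant with the processed signals, after loess and with only the probes well above background. With spike-in scaling both Smad3 and Tgif1 were resistant. In 4 of 9 the value was higher under stress at all, against 29.3% of all mRNAs. That split depended on the scaling, with 5 of 9 higher after loess or with the processed signals, 7 of 9 after centring or normexp correction, and 9 of 9 with spike-in scaling. The shares of the same 10033 mRNAs were 44.5%, 41.3%, 47.2%, 48.4% and 93.9% in that order. The members were also unlike each other at the start. In control cells 5 of 9 had log2 P/FM of at least 0, against 63.5% of all, and under stress 7 of 9 did, against 37.4%. Their median was 0.45 in control and 0.52 under stress, and their median change was -0.16, which was 0.55 above the median of all mRNAs. These counts and medians describe the 9 genes and carry no test.

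**Figure D1:**
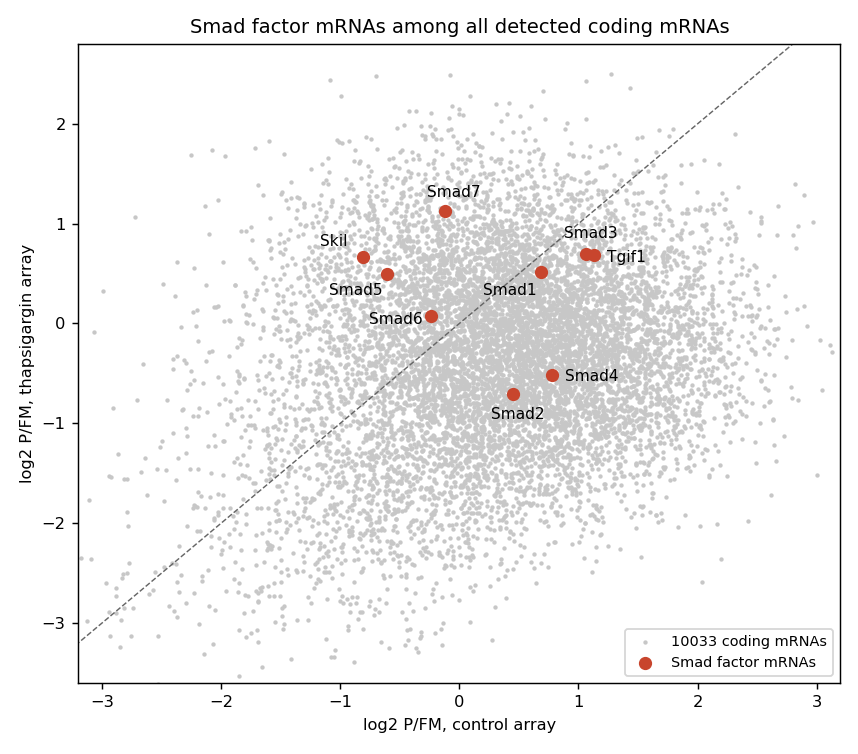
Each grey point is 1 of 10033 detected coding mRNAs, with log2 P/FM on the control array (x axis) and on the thapsigargin array (y axis), and the dashed line marks equal values. The 9 Smad factor mRNAs are the red points, with Skil, Smad5, Smad6 and Smad7 above the line and the other 5 below it, while with spike-in scaling all 9 lie above it. The axes leave out 115 mRNAs, none of them a Smad factor.

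Of the Smads that BMP receptors phosphorylate, Smad1 barely moved and the probes of Smad5 disagreed. Smad5 (NM_008541) was read by 3 probes on the plus strand of chromosome 13 (mm9), at chr13:56839004-56839063, chr13:56840572-56840631 and chr13:56843557-56843616, which start at bases 1849, 3417 and 6402 of the transcript. Their distances in the genome, 1568 and 2985 bases, equal those in the transcript, so no intron separates them, and whether they lie in coding sequence or in the 3′ UTR is not annotated in the files. Because the reading of Smad5 turns on which probe is taken, the first 30 of the 60 bases of each are shown.
Smad5 at 1849: cgtgttcattgtgattaactttcaaaagta
Smad5 at 3417: tcagctccatgagagagatgtctgctttat
Smad5 at 6402: tgctgcttacggcataggaaagtacactag

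The Smad5 probe at 1849 gave a P signal of 21.9 in control and 27.2 under stress, and an FM signal of 28.8 and 42.0. The probe at 3417 gave P signals of 30.7 and 74.3 and FM signals of 63.1 and 37.9. The probe at 6402, with the strongest signals, gave P signals of 452 and 1067 and FM signals of 592 and 481. At the 2 probes farther along the transcript the P signal was thus higher and the FM signal lower under stress, while at the first both were higher. In log2 P/FM the first probe went from -0.39 to -0.63, a change of -0.24, the second from -1.04 to 0.97, a change of 2.01, and the third from -0.39 to 1.15, a change of 1.54. The mean of the 3 moved from -0.61 ± 0.38 to 0.50 ± 0.98, a change of 1.11 ± 1.19 (SD, n = 3 probes), and since the probes differed in sign it was not called. The mean was positive under all 12 alternative settings that gave a value, from 0.81 to 3.56. Some of these settings, such as another filter on A, kept outlier spots or the authors' ratios, left it at 1.11 and so do not test it.

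Smad1 (NM_008539) had 2 probes on the minus strand of chromosome 8, 400 bases apart in genome and transcript alike. The brighter one gave P signals of 1652 and 3139 and FM signals of 1085 and 2274 in control and stressed cells, so both fractions gained about equally. The dimmer one gave P signals of 52.3 and 64.5 and FM signals of 31.0 and 43.5. In log2 P/FM the gene went from 0.68 ± 0.11 to 0.52 ± 0.07, a change of -0.16 ± 0.03 (SD, n = 2 probes). That is within the SD of 0.33 typical of probes of its brightness and 0.55 above the median of all mRNAs. Its sign turned under 5 of 13 alternative settings, while its distance from the median of all mRNAs was positive in all 13.

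The Smads of the TGF-beta and activin branch differed from each other. Smad2 (NM_010754), read by 1 probe on chromosome 18, had P signals of 250 in control and 316 under stress and FM signals of 183 and 514. Most of the difference was therefore in the light fraction, which under stress was 2.81-fold its control level. Its log2 P/FM fell from 0.45 to -0.70, and the change of -1.15 was -0.44 relative to the median of all mRNAs. The call was lost with the processed signals (-0.76), after loess (-0.67), with normexp correction (-0.55) and after centring (-0.53), and spike-in scaling turned it positive, to 1.30. Relative to the median of all mRNAs it was between -0.52 and -0.056 under the 13 alternative settings, the last with A above 7.

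Smad3 (NM_016769) had 2 probes on the minus strand of chromosome 9. At the probe at base 4473 the P signal was 204 in control and 220 under stress and the FM signal 77.7 and 93.3. At the probe at base 2112 the P signal was 31.2 and 34.5, and neither array had an FM signal well above background. There the signals as measured give a log2 P/FM of 0.73 in control and 0.16 under stress. These are lower bounds only if the true FM signal was no higher than measured. The probe at 4473 kept a high efficiency, 1.39 and 1.24, a change of -0.16, and would by itself class Smad3 as resistant. The counts and medians above use the mean of both probes, a change of -0.37 that takes the poorly measured probe at 2112 at its measured values. It was not called, and it was positive after centring, normexp correction and spike-in scaling.

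Smad4 (NM_008540), the partner that both branches need, fell in log2 P/FM at both of its probes. Its probe at base 3243 gave P signals of 1486 and 1606 and FM signals of 984 and 3078 in control and stressed cells. Its probe at base 2261, of which the annotation aligns 35 of 60 bases to chromosome 18 at a place that goes against the order of the 2 probes in the transcript, gave P signals of 398 and 413 and FM signals of 204 and 443. At both probes the P signal differed by less than 1.1-fold between conditions while the FM signal was 3.13- and 2.17-fold its control level. The log2 P/FM went from 0.78 ± 0.26 to -0.52 ± 0.59, a change of -1.30 ± 0.33 (SD, n = 2 probes) and of -0.59 relative to the median of all mRNAs. The fall was seen at both probes, -1.53 and -1.06, and was larger than the SD of 0.19 typical of probes of its brightness. The fall was below the threshold of 0.8 after centring (-0.67), with the processed signals (-0.47) and after loess (-0.39), where that of Smad2 was larger with the last pair of settings, and spike-in scaling turned it positive, to 1.16. Relative to the median of all mRNAs it was between -0.82 and -0.19 under the 13 alternative settings.

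The inhibitory Smads both had higher log2 P/FM under stress, with a rise called for Smad7 alone. Smad7 (NM_001042660), which blocks the type I receptors and recruits ubiquitin ligases to them, had P signals of 133 and 292 and FM signals of 144 and 134 at its single probe on chromosome 18. The polysome signal was 2.20-fold its control level while the light fraction was at 0.93-fold. Its log2 P/FM rose from -0.12 to 1.12, a change of 1.25, higher than in 92.7% of all mRNAs. The rise was 3.82 times the SD of 0.33 typical of its brightness and stayed between 1.06 and 3.70 under all 13 alternative settings. Those on filters, outlier spots and the authors' ratios left it at 1.25 and so do not test it. Smad6 (NM_008542), which acts chiefly against BMP signals, had P signals of 31.8 and 96.8 and FM signals of 37.5 and 92.2 at its single probe on chromosome 9. Both fractions of Smad6 were thus more than 2.4-fold their control level. Its log2 P/FM was -0.24 and 0.07, and the difference of 0.31 lay within the SD of 0.41 typical of its brightness. The difference was positive under all 11 alternative settings that gave a value, but those on filters, outlier spots and the authors' ratios left it unchanged.

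Tgif1 (NM_009372), a homeodomain corepressor of Smad2 and Smad3, kept a positive log2 P/FM in both conditions. Its single probe, on the minus strand of chromosome 17, gave P signals of 94.1 and 201 and FM signals of 42.9 and 125. The signals of both fractions were higher under stress, by 2.14-fold in P and 2.91-fold in FM. Its log2 P/FM was 1.13 in control and 0.69 under stress, a change of -0.44 that was close to the SD of 0.41 typical of its brightness. The change was positive after centring, normexp correction and spike-in scaling.

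Skil (NM_011386), a relative of the Ski oncoprotein that represses Smad targets, rose in log2 P/FM at both of its probes. Its 2 probes lie on the plus strand of chromosome 3 (mm9), at chr3:31016390-31016449 and chr3:31021203-31021262, starting at bases 2464 and 6420 of the transcript. They are 4813 bases apart in the genome and 3956 in the transcript, which leaves 857 bases between them that are not in the transcript. The first 30 of 60 bases of each are shown because the rise rests on both.
Skil at 2464: tgctcagaggatggaggaattctatattga
Skil at 6420: tgccaatgcatatagttttatgattaaaat

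The Skil probe at 2464 gave P signals of 27.9 in control and 163 under stress and FM signals of 38.1 and 111. The probe at 6420 gave P signals of 107 and 892 and FM signals of 240 and 521. Both probes had a larger gain in polysomes, 5.82- and 8.37-fold, than in the light fraction, 2.91- and 2.17-fold. In log2 P/FM the first went from -0.45 to 0.55, a change of 1.00, and the second from -1.17 to 0.78, a change of 1.95. The gene rose from -0.81 ± 0.51 to 0.67 ± 0.16, a change of 1.48 ± 0.67 (SD, n = 2 probes), higher than in 94.8% of all mRNAs. The rise was positive under all 12 alternative settings that gave a value, from 1.23 to 3.93. Those on filters, outlier spots and the authors' ratios left it at 1.48 and so do not test it.

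**Figure D2:**
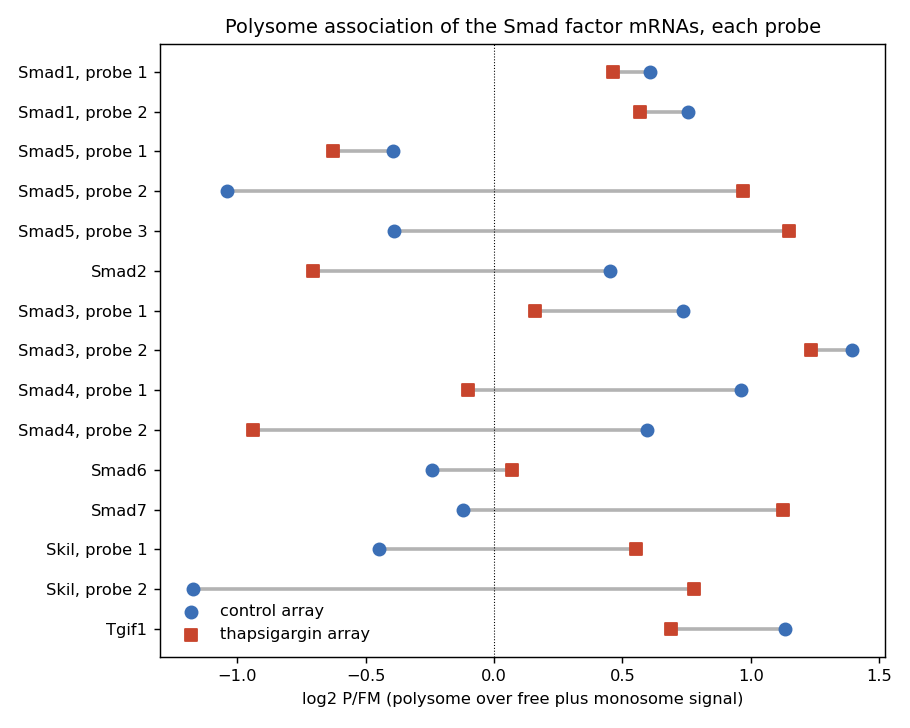
Each row is 1 of 15 probes of the Smad factor mRNAs, with log2 P/FM (x axis) on the control array as a blue circle and on the thapsigargin array as a red square, each from 1 spot. Probes of a gene are numbered by their order along the transcript. Both Skil probes, Smad6, Smad7 and the last 2 Smad5 probes cross from below to above 0, and Smad2 and both Smad4 probes cross the other way, which they do not do with spike-in scaling.

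With Smad3 read from its well measured probe alone, the values in control cells ran from Smad3 at 1.39 and Tgif1 at 1.13 through Smad4, Smad1, Smad2, Smad7, Smad6 and Smad5 to Skil at -0.81. Probe dye effects are part of these levels. Of the 8 gaps between neighbours, only that of 0.57 between Smad2 and Smad7 was larger than the spread of a difference, 0.41, taken from the SD typical of their brightness or the SD of a gene's own probes where that was larger. Under stress the values ran from Smad3 at 1.24 and Smad7 at 1.12 through Tgif1, Skil, Smad1, Smad5, Smad6 and Smad4 to Smad2 at -0.70. There the gap of 0.44 between Smad7 and Tgif1 was just beyond the spread of 0.42 and the other 7 gaps lay within theirs. The 4 mRNAs below 0 in control cells were the inhibitory Smads, Skil and Smad5, and all 4 were above 0 under stress.

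Taken apart, the fractions behaved differently among the members. The P signal was higher under stress in 9 of 9 mRNAs, against 50.7% of all detected coding mRNAs, and at all 15 probes. The FM signal was higher in 7 of 9 mRNAs, against 86.6% of all, and at 12 of 15 probes. The exceptions in FM were Smad7 and the last 2 probes of Smad5. Shares of all probes were not counted. These counts were not repeated with normexp correction, under which A, the average of both log2 signals, was higher in only 3 of 9, against 21.2% of the 10033 mRNAs. The median change in log2 P was 0.94 for the members and 0.02 for all mRNAs, and the median change in log2 FM was 1.30 and 0.72. No normalization was applied, and the average P signal over all transcript spots was 635 in control and 463 under stress while the average FM signal was 948 and 1397. The amounts of P and FM RNA labelled also differed between the conditions, and their part in these changes was not tested.

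**Figure D3:**
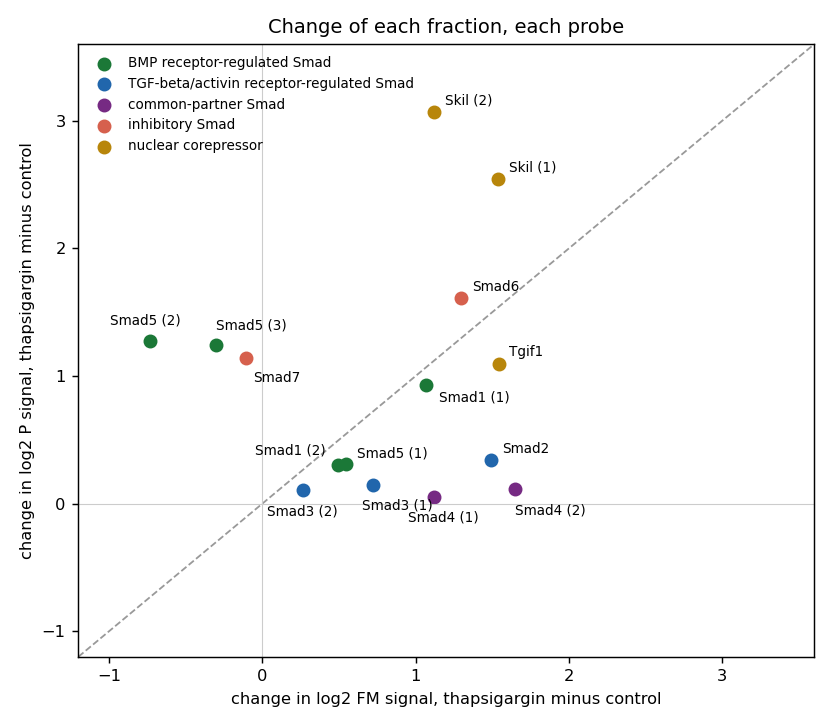
Each point is 1 of 15 probes, with the change in log2 FM signal (x axis) and in log2 P signal (y axis) from control to thapsigargin, coloured by the role of the protein, and numbers in brackets give the order of probes along the transcript. Points above the dashed line gained more in polysomes than in the light fraction, as Skil, Smad6, Smad7 and 2 of 3 Smad5 probes did. Smad2 and Smad4 lie far to the right and close to 0 on the y axis.

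As a measure of abundance, A was higher under stress in 9 of 9 members, against 76.8% of all mRNAs, and higher by at least 1 in 3 of 9, against 11.7% of all. With normexp correction these counts were 3 of 9 (Skil, Smad2 and Smad4), against 21.2% of the same mRNAs, and 0 of 9. Without that correction the 3 with a gain of at least 1 were Skil, Smad6 with 1.45 and Tgif1 with 1.32. The gain of Skil was 2.07 ± 0.04 (SD, n = 2 probes) and exceeded that of 99.4% of all mRNAs. With normexp correction, under which the median change in A of the 10033 mRNAs was -0.57, the change in A was 0.23 for Skil, -0.86 for Smad6 and -0.50 for Tgif1. Centring A on the median of each array gave 1.69, 1.08 and 0.95. In the other 6 the change in A lay between 0.31 (Smad3) and 0.92 (Smad2), beside a median of 0.37 for all mRNAs and 0.73 for the 9. Normexp correction put Smad1, Smad3, Smad5 and Smad7 at -0.28, -1.23, -0.94 and -0.49. In bulk RNA of this kind a change in RNA per cell and a change in the number of contributing cells cannot be told apart. The inhibitor Smad6 thus gained in signal with little shift between the fractions, Smad7 shifted with a gain in A of 0.51, and Skil had both, without that correction.

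For the rest of the pathway, 6 lists of TGF-beta family genes by role held 114 genes, none of them a Smad factor above, of which 112 were on the array and 74 were detected through 75 accessions. Their median change in log2 P/FM was -0.31, which was 0.40 above the median of all mRNAs. Of the 75, 26 were sensitive, 7 inducible and 4 resistant, against the 47.0%, 8.86% and 3.00% given above.

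Among 8 detected ligands, 3 were sensitive and 1 inducible, against 47.0% and 8.86% of all mRNAs. The log2 P/FM of Tgfb1, the founding ligand, fell from 0.80 to -1.37, and that of Gdf11 fell by 1.26. Inhba, which encodes the activin A subunit, rose by 1.17, and Tgfb3 was resistant at 1.27 and 0.92. The 7 detected receptors were the list with the highest median change, 0.46, and 5 of 7 had higher values under stress, against the 29.3% of all mRNAs. That median was the value of Tgfbr3, read by 1 probe with A of 5.18 in control cells. Bmpr1a, Eng and Tgfbr1 did not have every signal well above background. The SD of the change between probes was 1.77 for Bmpr1a and 0.87 for Tgfbr1. None of the 7 was sensitive, against 47.0% of all. Bmpr2, the type II receptor for BMPs, rose from 0.58 to 1.71, and Acvr1, a type I receptor, went from 0.29 to 1.05. Extracellular regulators had the lowest median, -1.02, with 7 of 12 sensitive, against 47.0% of all mRNAs. Among them the BMP antagonist Nog fell by 2.07 and Ltbp3, which stores latent TGF-beta in the matrix, changed by -1.41 ± 0.09 (SD, n = 2 probes). Thrombospondin 1 (Thbs1), an activator of latent TGF-beta, rose by 1.63 ± 0.60 (SD, n = 3 probes).

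Of 18 detected genes for Smad anchors, ligases and phosphatases, 10 were sensitive and 3 inducible, against 47.0% and 8.86% of all mRNAs. Of the 3 inducible ones, 2 had every signal well above background. Stub1, a ubiquitin ligase that acts with chaperones, fell by 3.03, and the phosphatase gene Ctdsp2 changed by -2.32 ± 0.35 (SD, n = 3 probes). The ligase genes Rnf111, which targets Skil and Smad7 for degradation, and Trim33, which acts on Smad4, were inducible with rises of 1.50 ± 0.83 (SD, n = 2 probes) and 1.00, and Nedd4l was resistant. Among 17 accessions for nuclear partners, 4 were sensitive and 2 inducible, beside the same shares of all mRNAs. Of the 2 inducible ones, 1 had every signal well above background. E2f4, a partner of Smads in repression, fell by 2.22, and Ski, the close relative of Skil, changed by -1.40 ± 0.84 (SD, n = 3 probes), in the other direction from Skil. Zeb1, a repressor that binds Smads, rose by 2.16, while the 2 detected accessions of Runx1, which cooperates with Smads, differed, with changes of 0.97 and -0.78.

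Of 13 detected target genes, 2 were sensitive, 1 inducible and 1 resistant (Id1), against 47.0%, 8.86% and 3.00% of all mRNAs. Of the 13, 5 gained at least 1 in A, against the 11.7% of all mRNAs before any normexp correction. Ccn2 (named Ctgf on the array), a matrix protein induced by TGF-beta, rose from -0.42 to 2.12. Atoh8 fell by 2.27 and Tgfb1i1 changed by -1.12 ± 0.37 (SD, n = 3 probes). Under spike-in scaling the median change of the 6 lists together was 2.14, where that of all mRNAs was 1.74, so the directions of these falls hold for the unscaled arrays.

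**Figure D4:**
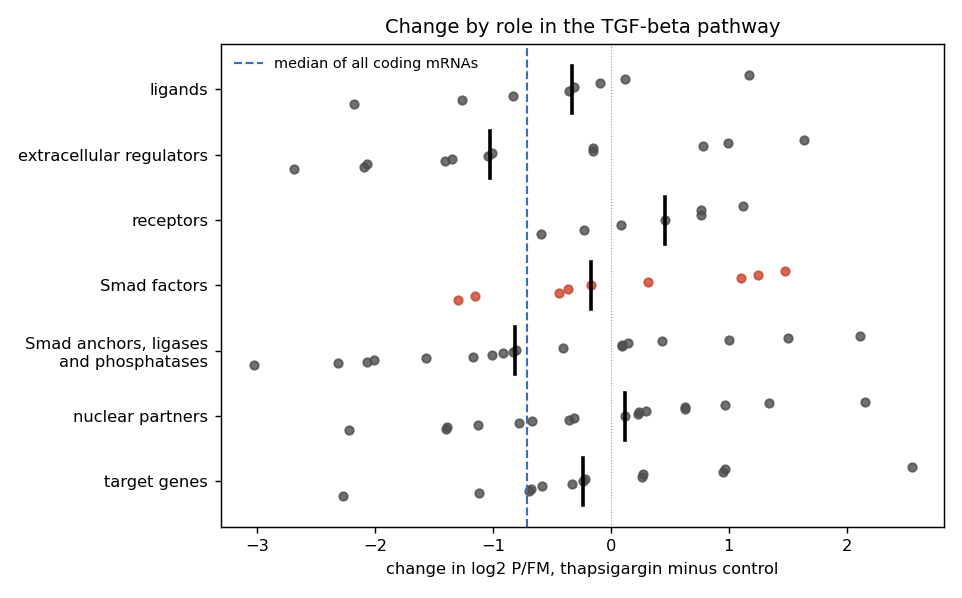
Each point is a detected mRNA and the x axis is its change in log2 P/FM from control to thapsigargin without scaling, by role in the pathway, with the median of each list as a black bar. The blue dashed line marks the median of all coding mRNAs, -0.71. The 9 Smad factors (red) range from -1.30 to 1.48 around a median of -0.16, the receptors have the highest median and the extracellular regulators the lowest, and with spike-in scaling all medians lie higher.

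Among 5505 well measured coding mRNAs, those closest to Skil in control log2 P/FM, stress log2 P/FM and change in A were Tiparp, Zfp960 and Hk2, at Euclidean distances of 0.37, 0.55 and 0.56 over these 3 values. Tiparp went from -0.67 to 0.54 in log2 P/FM with a gain of 2.39 in A. Those closest to Smad4 were Snd1, Tmem63a and Chchd7, at 0.058, 0.070 and 0.077. The distances around Smad4 were smaller than those around Skil. The 5505 had A above 7 on both arrays, while A of Skil was 6.17 in control cells. Few mRNAs gained as much in A as Skil, so the distances around the 2 genes are not a like comparison.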

How the data were processed

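NIH3T3 cells were compared with and without thapsigargin by polysome profiling, with 1 array per condition. Per the file headers, the spot and background intensity values came from Feature Extraction 10.7.1.1 without normalization, and the authors also deposited a table of log2 ratios of P to FM. Of its values for 10757 coding accessions, 98.8% equalled those computed here within 0.001. The deposited flags mark outlier spots and spots well above background.

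Spot signals were means of pixels less the median of the surrounding background, with a floor of 0.5, which keeps low signals from being lost but makes their ratios imprecise. Then 295 outlier spots were left out, and spots of a probe and probes of an accession were averaged. Coding mRNAs were accessions starting with NM, of which 98.3% were named from RefSeq (GRCm38.p6, names only). Values were read with A above 4.5 on both arrays. Normexp and loess were run with limma 3.58.1 in R 4.3.3, and the steps were tested on simulated data.

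The members and lists were chosen with earlier results of these data known. In each list the genes named were the largest rises and falls with all signals well above background, up to 2 each way, and members past the inducible or resistant thresholds. Some genes that this rule names are not reported here. The number of arrays limits the precision.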

Additional observations from a re-analysis of the deposited data

How the results depend on the processing

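No paired analysis was possible because each condition had 1 array, and no sample could be left out. Of the alternative values for the class counts and list medians, 39 stayed close to those reported and 17 moved, and of those for single members 135 stayed close, 56 moved and 4 called ones changed direction, while 11 uncalled changes in log2 P/FM and 6 in A also changed sign. With normexp correction 1 Smad factor was sensitive and the median change of the Smad factors was 0.66, where that of the 10033 mRNAs was -0.04. The pathway median was 0.36 over the 114 accessions that passed the filter on A there, beside 0.33 for all 18743 that passed it. With the processed signals of the scanner software none was sensitive (0) and the Smad factor median was 0.23, beside -0.28 for the 10033. The pathway median was 0.15 over 87 accessions, beside -0.30 for the 12335 that passed the filter. Centring gave 0 sensitive and medians of 0.46 and 0.32, beside -0.08. Loess gave 0 sensitive and a pathway median of 0.21, beside -0.15. Spike-in scaling, on 10 probes whose change had a median of -2.46, gave 0 sensitive and medians of 2.29 and 2.14, beside 1.74. It turned the changes of Smad2 and Smad4 to 1.30 and 1.16. With A above 7 the 4 Smad factors left had a median change of -0.66 and 1 was inducible, and with each probe as the unit 5 of 15 were inducible. Normexp correction turned the changes in A of Smad6 and Tgif1 to -0.86 and -0.50. The cause of these differences was not tested. Other filters on A, kept outlier spots and the authors' ratios returned the reported values of every member they kept. Those values are among the 135 that stayed close. Skil and Smad7 were inducible under every alternative that kept them, and Smad5 was not with normexp correction, without background subtraction or with median pixel signals. Probes with A near 4.5, such as the first of Smad5 and of Smad3, limit what can be said of those genes.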
